A study of Mus musculus with 6 samples.

Results

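The 44 genes described here encode the machinery that receives, folds, glycosylates and disposes of secretory and membrane proteins in the endoplasmic reticulum (ER), together with the 3 sensors of the unfolded protein response. They were chosen by name and role, with earlier results of these data known, and each was matched to array probes through the gene symbol of the platform annotation. Of the 44, 43 had a probe assigned to that symbol alone, among 19057 genes with such a probe, and Dnajb11, an ER co-chaperone, was not analysed here. The 40 members that passed the filter on dim probes were tested among 11843 genes.

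Proteins bound for the cell surface or for secretion enter the ER while they are being made. The signal recognition particle brings the ribosome to the SEC61 channel, signal peptidase removes the leader peptide, and oligosaccharyltransferase attaches N-glycans as the chain passes into the lumen. Chaperones and protein disulfide isomerases then fold the chain, and chains that fail to fold are returned to the cytosol and degraded. When unfolded chains accumulate, the sensors IRE1, ATF6 and PERK start the unfolded protein response, which raises folding capacity and restrains translation. In the B lineage this system is known for its expansion when B cells become antibody-secreting plasma cells.

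The cells were splenic B lymphocytes, purified from C57BL/6 mice (an inbred laboratory strain) aged 8 weeks. Untreated cells gave 3 samples and cells given anti-IgM another 3, each read on 1 Illumina bead array. Anti-IgM was a goat F(ab')2 antibody that binds mouse IgM and so cross-links the antigen receptor of the B cell, used at 2.5 µg/ml for 3 h. Interleukin 4 (IL-4, 5 ng/ml) and CD40 ligand (CD40L, 200 ng/ml), which help to activate B cells, also appear in the protocols, which do not state the samples they were given to. If only the anti-IgM samples did, the effects of these agents and of anti-IgM cannot be told apart. The comparison asks how transcripts of the ER system differed after 3 h of antigen receptor engagement.

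Levels are log2 of the deposited normalized intensity, and changes are log2 differences, anti-IgM minus untreated, ± the standard error (SE) of limma's fit (n = 3 per group). A gene was called when its Benjamini-Hochberg adjusted p over all 11843 genes was under 0.05. Intensities of different probes are not comparable, so no level of 1 gene is set against that of another. The median array intensity was 72.8 (log2 6.19), and with 3 arrays a group the SE of a change was 0.15 at the median gene, which sets the precision. Arrays of the same group correlated at 0.981 to 0.992 and arrays of different groups at 0.898 to 0.912, and both arrays numbered 1 deviated from the rest of their group in a shared direction. Of 7 B cell markers none (0) was below the array median on all arrays, and 6 of the 7 fell, their summed intensity going from 45757 to 55182 in the untreated samples to 10580 to 15749 in the anti-IgM samples. Summed intensity of 8 plasma cell markers was 7058 to 13065 untreated and 15635 to 19160 with anti-IgM. Irf4 and Xbp1 made up most of this sum, and the list shares Xbp1, Fkbp11 and Derl3 with the lists used here. Of the 8, Irf4 and Fkbp11 rose and Sdc1 fell, while Prdm1, Jchain, Tnfrsf17 and Derl3 stayed between log2 5.79 and 6.56 on all arrays, around the array median. Of 9 macrophage and dendritic cell markers 7 were tested, of which 1 rose and 3 fell. Itgam and Itgax were below the array median on all 6 arrays. The summed intensity of the 9 was 5017 to 8192 untreated and 2864 to 3920 with anti-IgM. None (0) of the 7 T cell markers tested was called. Of the 5 natural killer cell markers tested 1 rose and 1 fell, and 2 of 6 neutrophil markers fell. None (0) of the 2 red cell markers tested was called, and Hba-a1 was above the array median on all 6 arrays. In bulk RNA fewer cells of a type and less RNA per cell cannot be told apart, and the part of these shifts in the results below was not tested.

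Most ER genes that changed were higher with anti-IgM. Of the 40 members tested, 23 rose (57.5%) and 3 fell (7.5%), while 14 did not pass the test. Over all genes 47.1% were called, 23.2% as higher and 23.9% as lower. By at least 2-fold, 9 members rose and 2 fell, against 9.38% of all genes that rose and 10.5% that fell by that much. Creld2 lay at the 2-fold mark itself, and leaving out 1 array at a time gave 8 to 9 members higher by that much. The anti-IgM and untreated samples did not overlap for 31 members (77.5%), against 54.8% of all genes, and 5 of these 31 were not called. The median change of the 40 members was 0.53, and 0.55, 0.45 and 0.51 within the numbered pairs 1, 2 and 3, beside a median of 0.02 over all genes. The groups of all 26 called members did not overlap, which by itself fixes the same direction in all 3 pairs, so the pairs add no support here. Without both replicate 1 arrays, 25 members rose and 4 fell. The members that did not pass the filter were Canx and Manf, below the array median on all 6 arrays, and Derl1, above it on 2 of 6.

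**Figure D1:**
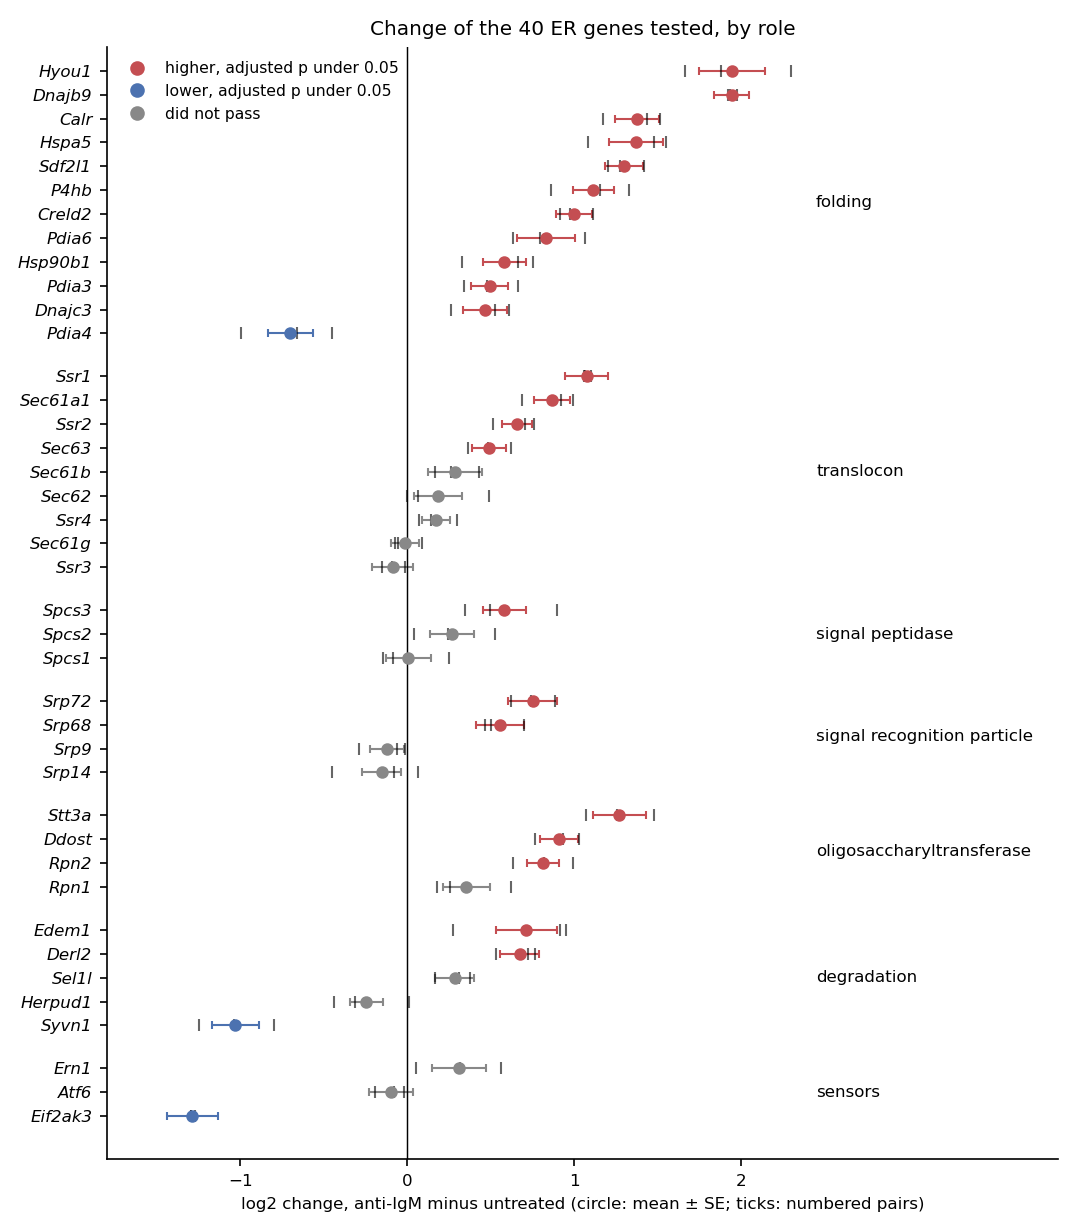
The 40 ER genes tested are grouped by role, with the log2 change (anti-IgM minus untreated) on the horizontal axis. Circles are means with bars of 1 SE, small ticks are the 3 numbered pairs, and red, blue and grey mark genes called higher, called lower and not passed. Of the 12 folding genes 11 lie to the right of 0 in red and Pdia4 lies to the left, while in every other role passed and not passed genes are mixed.

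Folding factors had the highest share of rises among the roles in this set. Of 12 tested, 11 rose, Pdia4 fell and none (0) missed the threshold, with a median change of 1.06. The genes that rose include lumenal chaperones, their co-chaperones and nucleotide exchange factor, and most of the disulfide isomerases listed. Hyou1 (GRP170), the exchange factor of the HSP70 chaperone BiP, had levels of 6.93, 6.79 and 6.26 in the untreated samples and 8.81, 8.46 and 8.56 with anti-IgM. It rose by 1.95 ± 0.20 (3.86-fold, adjusted p = 1.49e-05). Dnajb9 (ERdj4), a BiP co-chaperone, stood at 8.73, 8.86 and 8.81 untreated and at 10.67, 10.84 and 10.73 with anti-IgM. Its change was 1.95 ± 0.11 (3.85-fold, adjusted p = 1.93e-07). For both genes the lowest anti-IgM sample lay more than 1 log2 unit above the highest untreated one.

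Hspa5, which encodes BiP itself, measured 6.80, 6.40 and 6.37 untreated and 7.89, 7.88 and 7.92 with anti-IgM. The groups did not overlap, and Hspa5 rose by 1.37 ± 0.16 (2.58-fold, adjusted p = 4.68e-05). Hspa5 and Hyou1 sit close to the array median in untreated cells, where background that was not subtracted compresses folds. With the 1st percentile of each array subtracted, their changes were 1.74 and 2.34. Calr (calreticulin), the lumenal lectin chaperone of N-glycosylated chains, went from 9.96, 10.44 and 10.08 to 11.39, 11.61 and 11.60. That is a rise of 1.38 ± 0.13 (adjusted p = 1.05e-05), again without overlap. Its membrane-bound relative Canx (calnexin) was too dim to be tested.

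Sdf2l1, a lumenal protein found in BiP co-chaperone complexes, had untreated levels of 8.76, 8.98 and 8.95 and anti-IgM levels of 10.18, 10.26 and 10.15. It rose by 1.30 ± 0.11 (adjusted p = 4.3e-06). P4hb, the archetypal protein disulfide isomerase (PDI), measured 12.00, 11.88 and 11.96 untreated and 13.33, 13.03 and 12.82 with anti-IgM, a rise of 1.12 ± 0.12 (adjusted p = 2.66e-05). Creld2, an ER protein known as a target of the ATF6 branch, went from 9.23, 9.28 and 9.39 to 10.21, 10.39 and 10.31, a rise of 1.00 ± 0.11 (adjusted p = 2.22e-05). The spread within each group was small beside these differences, and the groups of all 3 genes were apart.

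The remaining folding genes moved less. Pdia6, an isomerase that associates with BiP, rose by 0.83 ± 0.17 (adjusted p = 0.0021), and Hsp90b1 (GRP94), the ER member of the HSP90 family, by 0.58 ± 0.13 (adjusted p = 0.0031). Pdia3 (ERp57), the isomerase that works with calreticulin and calnexin, rose by 0.49 ± 0.11 (adjusted p = 0.0034). Dnajc3 (p58IPK), a co-chaperone of BiP, rose by 0.47 ± 0.13 (adjusted p = 0.014). Without anti-IgM replicate 3 the change of Dnajc3 was 0.37 and was no longer called (adjusted p = 0.066). Pdia4 (ERp72), another isomerase, went the other way, from 11.86, 11.38 and 11.40 to 10.87, 10.93 and 10.74. It fell by 0.70 on the log2 scale (SE 0.13, adjusted p = 0.0013), with all anti-IgM samples below all untreated ones.

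**Figure D2:**
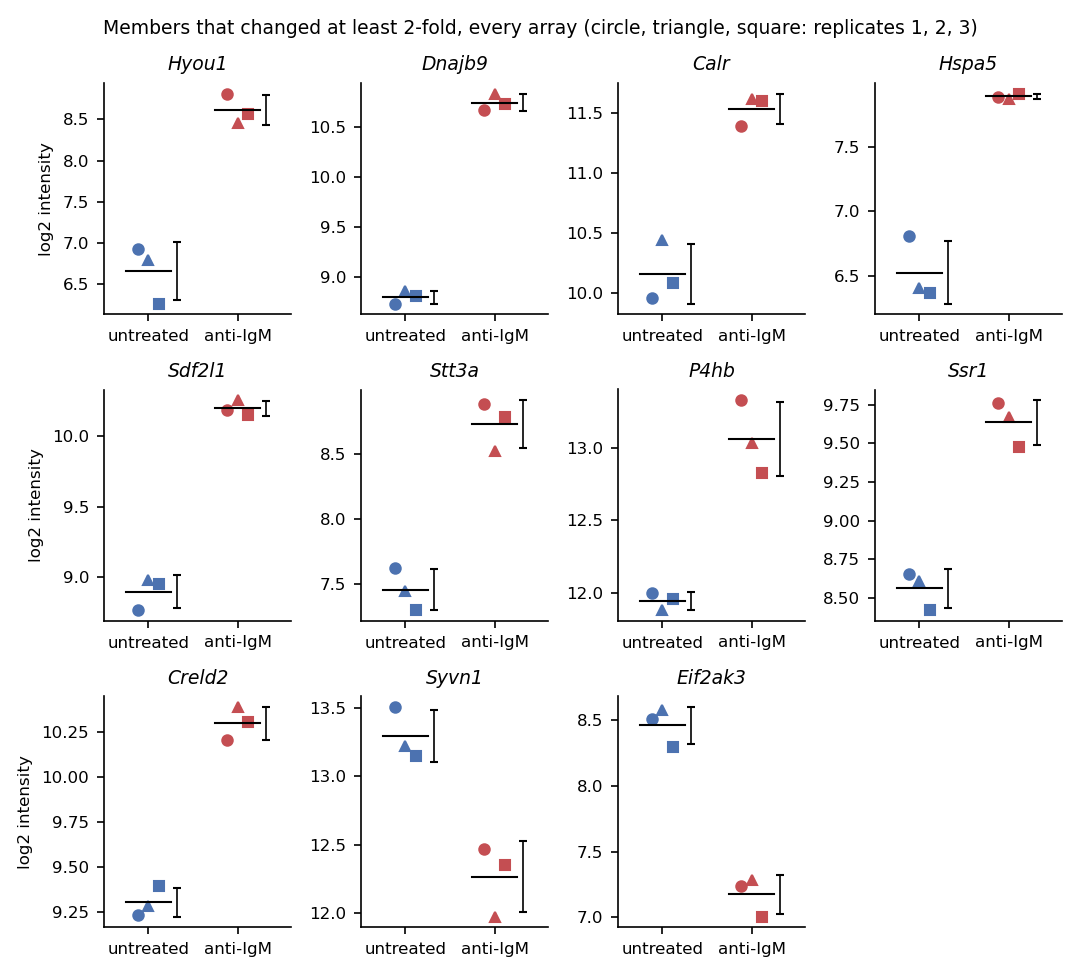
Log2 intensity in each of the 6 samples is shown for the 11 ER genes called with a change of at least 2-fold. Circles, triangles and squares are replicates 1, 2 and 3, the horizontal line is the group mean and the bar beside it the SD. The anti-IgM samples lie above the untreated ones for 9 genes and below them for Syvn1 and Eif2ak3, with no overlap.

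Promoters of several members, most of them folding genes, carry a known control element of the unfolded protein response. Those of Calr, Hspa5, Creld2 and the degradation gene Syvn1 are shown because these 4 changed most among the tested members that hold it. The ER stress response element, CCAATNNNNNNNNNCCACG, is known as the site where ATF6 acts with the CCAAT-binding factor NF-Y. It was searched on both strands in the RefSeq windows from 250 bases before to 50 bases after each gene's start (GRCm38.p6), and 36 of the 44 members had a window. The sequences run 5′ to 3′ on the strand of the gene, with the element in capitals. Calr spans chr8:84846882-84847181 (minus strand), Hspa5 chr2:34771840-34772139 (plus), Syvn1 chr19:6046326-6046625 (plus) and Creld2 chr15:88819396-88819695 (plus).
Calr: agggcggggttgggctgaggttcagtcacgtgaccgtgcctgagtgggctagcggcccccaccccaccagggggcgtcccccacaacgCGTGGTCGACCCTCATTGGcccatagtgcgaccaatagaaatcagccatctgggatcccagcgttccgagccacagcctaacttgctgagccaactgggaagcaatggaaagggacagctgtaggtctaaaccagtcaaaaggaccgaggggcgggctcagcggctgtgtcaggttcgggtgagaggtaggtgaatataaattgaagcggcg
Hspa5: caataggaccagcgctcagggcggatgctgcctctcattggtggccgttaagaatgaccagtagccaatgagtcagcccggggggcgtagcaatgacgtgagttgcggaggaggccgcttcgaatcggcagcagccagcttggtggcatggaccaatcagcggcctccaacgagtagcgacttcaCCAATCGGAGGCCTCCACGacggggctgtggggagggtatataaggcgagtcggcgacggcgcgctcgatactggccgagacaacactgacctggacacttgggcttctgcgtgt
Syvn1: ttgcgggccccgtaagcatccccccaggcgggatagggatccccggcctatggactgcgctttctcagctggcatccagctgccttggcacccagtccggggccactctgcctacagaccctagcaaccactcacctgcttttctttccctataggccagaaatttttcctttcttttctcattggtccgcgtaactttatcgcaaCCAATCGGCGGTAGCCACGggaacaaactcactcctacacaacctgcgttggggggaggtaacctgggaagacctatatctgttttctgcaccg
Creld2: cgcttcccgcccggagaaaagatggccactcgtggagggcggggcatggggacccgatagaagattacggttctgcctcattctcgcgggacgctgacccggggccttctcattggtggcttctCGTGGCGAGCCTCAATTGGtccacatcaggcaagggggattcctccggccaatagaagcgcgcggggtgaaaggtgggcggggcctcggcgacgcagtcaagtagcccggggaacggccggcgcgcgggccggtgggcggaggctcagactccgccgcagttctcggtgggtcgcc

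The element occupied bases -162 to -144 from the start in Calr, -65 to -47 in Hspa5, -44 to -26 in Syvn1 and -126 to -108 in Creld2. In Calr and Creld2 it was read on the opposite strand, so its capitals begin with CGTGG. It was present in 8 of the 36 members with a window (22.2%) and in 37 of all 27025 genes with one (0.137%). The other 4 members that hold it are Canx, Dnajc3, Hsp90b1 and Pdia6, and Hsp90b1 holds 2 copies. Since this element was first described in promoters of ER chaperones, its presence among them is no independent finding. Among members with a window, 6 of the 18 that rose and 1 of the 16 others tested held it, the latter being Syvn1, which fell. Outside the ER members, 6 genes with the element were tested, of which none (0) rose, 2 fell and 4 did not pass. Of the 4 that did not pass, Hnrnpa3, Adcy3 and Derl3 were near the array median, where low signal limits the reading. Those that fell were Ero1b, an oxidase that recharges disulfide isomerases, at -1.38, and Pan2, a subunit of an mRNA deadenylase, at -1.07.

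The shorter ER stress response element II, ATTGGNCCACG, was found in Dnajb11 and Herpud1, which is 5.56% of members and 0.0444% of all genes with a window. The core of the unfolded protein response element, TGACGTG, known as a site of XBP1 and ATF6, was found in Hspa5 alone among members (2.78%) and in 2.22% of all genes. In the Hspa5 sequence above it lies at bases -157 to -151. The element II match of Herpud1 lies at -52 to -42 and that of Dnajb11 at 8 to 18. Of the 7 tested members with the first element, the ER stress response element, 6 rose and 1 fell. Whether a match goes with the direction of change was not tested. A match is a description of letters in this window and shows no binding.

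**Figure D3:**
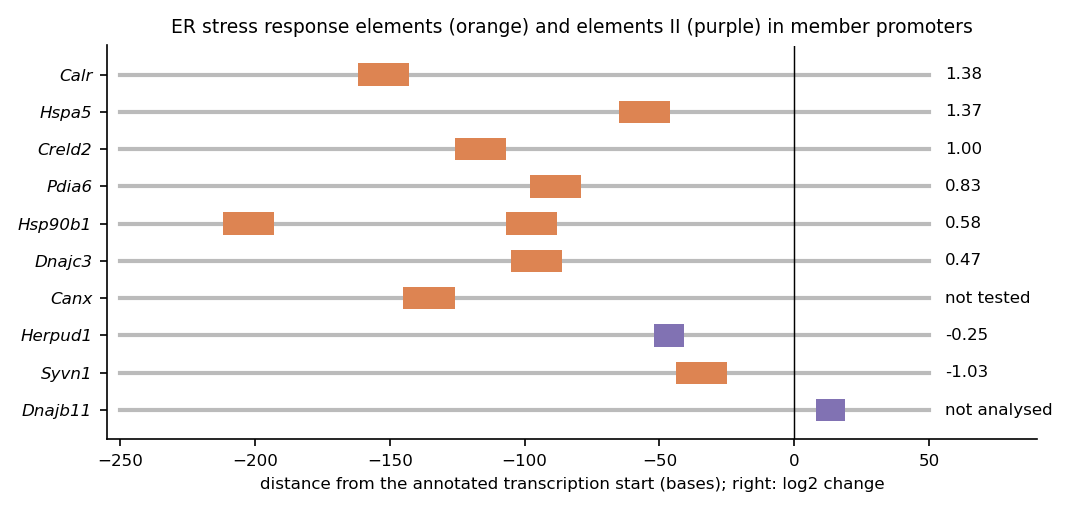
Each line is the promoter window of an ER gene that holds a match, with distance from the gene's start in bases on the horizontal axis, from 250 before to 50 after. Orange marks the ER stress response element and purple element II, and the log2 change stands at the right. Of the 7 tested genes with an orange mark, 6 rose and Syvn1 fell by 1.03.

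The channel and targeting genes were more divided. Of 9 translocon genes, 4 rose and 5 did not pass, with a median change of 0.29. Ssr1, the alpha subunit of the translocon-associated protein (TRAP) complex that sits beside the channel, had levels of 8.66, 8.61 and 8.42 untreated and 9.76, 9.67 and 9.48 with anti-IgM. It rose by 1.08 ± 0.13 (adjusted p = 5.12e-05). Sec61a1, the pore-forming subunit of the channel, went from 10.09, 9.92 and 10.03 to 11.01, 10.92 and 10.72, a rise of 0.87 ± 0.11 (adjusted p = 7.1e-05). The groups were apart for both genes, but a second, dimmer probe of each was not called, with changes of -0.14 for Ssr1 and 0.12 for Sec61a1. Ssr2, the beta subunit of TRAP, rose by 0.66 ± 0.09 (adjusted p = 0.000133). Sec63, which recruits BiP to the channel, rose by 0.49 ± 0.10 (adjusted p = 0.0022).

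The small channel subunits did not follow the pore subunit past the test. Sec61b changed by 0.29 ± 0.16 (adjusted p = 0.18) and Sec61g by -0.01 ± 0.08 (adjusted p = 0.92). With the replicate number as a block, Sec61b was called higher (adjusted p = 0.020). Sec62, the partner of SEC63 in post-translational import, changed by 0.18 ± 0.14 (adjusted p = 0.34). The TRAP subunits Ssr3 and Ssr4 changed by -0.09 ± 0.12 (adjusted p = 0.62) and 0.17 ± 0.08 (adjusted p = 0.13). A second probe of Ssr3, with a mean of 5.91 untreated and 6.51 with anti-IgM, was called higher, at 0.60 (adjusted p = 0.0093). It was above the array median on 3 of 6 arrays, so the filter admitted it through its high group and its call supports nothing. Thus within SEC61 and within TRAP 1 or more subunits rose while others missed the threshold, and whether subunits of a complex differed from each other was not tested.

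Signal peptidase and the signal recognition particle (SRP) showed the same mixture. Of the 3 signal peptidase subunits listed, Spcs3 rose by 0.58 ± 0.13 (adjusted p = 0.0033). Spcs2 changed by 0.27 ± 0.13 (adjusted p = 0.12) and Spcs1 by 0.01 ± 0.13 (adjusted p = 0.97). Of the 4 SRP proteins, Srp72 rose by 0.75 ± 0.15 (adjusted p = 0.0015) and Srp68 by 0.56 ± 0.14 (adjusted p = 0.0081). These form a heterodimer on the domain of the particle that binds the signal sequence and its receptor. The pair that forms the Alu domain, which slows elongation, did not pass, with Srp9 at -0.12 ± 0.10 (adjusted p = 0.37) and Srp14 at -0.15 ± 0.11 (adjusted p = 0.32).

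Of the 4 oligosaccharyltransferase subunits among the members, 3 rose and 1 did not pass. Stt3a, a catalytic subunit of the form that acts during translocation, went from 7.62, 7.44 and 7.30 to 8.88, 8.52 and 8.78, and rose by 1.27 ± 0.16 (2.41-fold, adjusted p = 6.33e-05). Ddost, a non-catalytic subunit, rose by 0.91 ± 0.11 (adjusted p = 6.13e-05), and Rpn2 (ribophorin II) by 0.81 ± 0.09 (adjusted p = 4.06e-05). Rpn1 (ribophorin I) was 6.48, 6.35 and 6.08 untreated and 6.66, 6.61 and 6.70 with anti-IgM, near the array median. Its change of 0.35 ± 0.14 did not pass (adjusted p = 0.063), and with the replicate block it was called higher (adjusted p = 0.047). The groups of all 4 genes were apart, and the median change of the 4 was 0.86.

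ER-associated degradation genes went in both directions. Edem1, a mannosidase-like protein that marks misfolded glycoproteins for disposal, rose by 0.71 ± 0.18 (adjusted p = 0.0076). Its samples stood at 7.68, 8.02 and 8.29 untreated and 8.63, 8.94 and 8.56 with anti-IgM. A second probe changed by -0.05 and was not called, and with the probes averaged Edem1 was no longer called (0.33, adjusted p = 0.11). Derl2, a derlin of the retrotranslocation machinery, rose by 0.67 ± 0.12 (adjusted p = 0.000627).

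Syvn1 (HRD1), the membrane ubiquitin ligase at the centre of this pathway, was well above the array median in every sample and fell. Its levels were 13.51, 13.22 and 13.15 untreated and 12.47, 11.97 and 12.35 with anti-IgM. The change was -1.03 ± 0.14 (2.04-fold lower, adjusted p = 0.000128), with every anti-IgM sample below every untreated one. Sel1l, the adaptor that stabilises HRD1, changed by 0.29 ± 0.12 (adjusted p = 0.070), and Herpud1, which helps to assemble the HRD1 complex, by -0.25 ± 0.10 (adjusted p = 0.065). With the replicate block Sel1l was called higher (adjusted p = 0.023) and Herpud1 lower (adjusted p = 0.033). A second probe of Herpud1 was also called lower (-0.32, adjusted p = 0.032). Other tested probes of Sel1l, all dimmer, changed by 0.20 and -0.27 and were not called. Over the alternatives other than a minimum change, the change of Sel1l ran from 0.07 to 0.36.

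None of the sensors (0 of 3) was called higher, beside 23.2% of all genes, so this count is no result about sensors. Eif2ak3, which encodes PERK, the kinase that phosphorylates eIF2α and so restrains translation, fell by 1.29 on the log2 scale (SE 0.15, 2.44-fold lower, adjusted p = 4.93e-05). Its levels were 8.51, 8.58 and 8.30 untreated and 7.24, 7.28 and 7.00 with anti-IgM, without overlap. A second, dimmer probe of Eif2ak3 (both are annotated to cDNA clone records) changed by -0.13 and was not called, and the average of both probes changed by -0.71. Ern1, which encodes IRE1α, the sensor whose nuclease splices Xbp1 mRNA, measured 6.29, 6.11 and 6.50 untreated and 6.86, 6.42 and 6.55 with anti-IgM. These samples overlapped, and the change of 0.31 ± 0.16 did not pass (adjusted p = 0.15). Atf6, the sensor that is cleaved into a transcription factor, stood at 6.66, 6.64 and 6.42 untreated and 6.47, 6.57 and 6.40 with anti-IgM. Its change was -0.10 ± 0.13 (adjusted p = 0.61). A second probe of Atf6, above the array median on all 6 arrays, changed by 0.34 and was not called (adjusted p = 0.10). A second probe of Ern1 changed by -0.03 and was not called. Ern1 and Atf6 were both close to the array median, where the array has little range for a fall. Background that was not subtracted also compresses rises there.

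Of the genes known to act downstream of the sensors, those always named by rule and some chosen after their values were seen are given here. Atf4, the transcription factor translated when eIF2α is phosphorylated, had levels of 11.55, 11.45 and 11.31 untreated and 12.81, 12.26 and 12.65 with anti-IgM, a rise of 1.14 ± 0.14 (adjusted p = 5.15e-05). Ddit3 (CHOP), a target of ATF4, went from 9.29, 9.40 and 9.81 to 10.57, 10.35 and 10.32, a rise of 0.91 ± 0.15 (adjusted p = 0.000401). Ppp1r15a (GADD34), which restores translation by directing a phosphatase to eIF2α, rose by 1.51 ± 0.14. These genes also answer to the other eIF2α kinases. Atf6b, a relative of the sensor Atf6 rather than a gene downstream of it, rose by 0.47 ± 0.10 (adjusted p = 0.0018). The list these genes come from holds 21 tested genes, of which 10 rose and 5 fell. Those that fell include Rtcb (-0.72 ± 0.10) and Traf2 (-0.71 ± 0.14).

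Xbp1, whose mRNA IRE1 splices, depended on 1 array. Its levels were 13.32, 11.83 and 11.98 untreated and 13.02, 12.84 and 12.87 with anti-IgM, so untreated replicate 1 lay above every anti-IgM sample. The change of 0.53 ± 0.31 did not pass (adjusted p = 0.20). Without untreated replicate 1 it was 1.00 (adjusted p = 1.12e-05), without both replicate 1 arrays 0.95 (adjusted p = 9.83e-09), and with the replicate block it was called (adjusted p = 0.0048). The array does not separate the spliced from the unspliced form here.

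**Figure D4:**
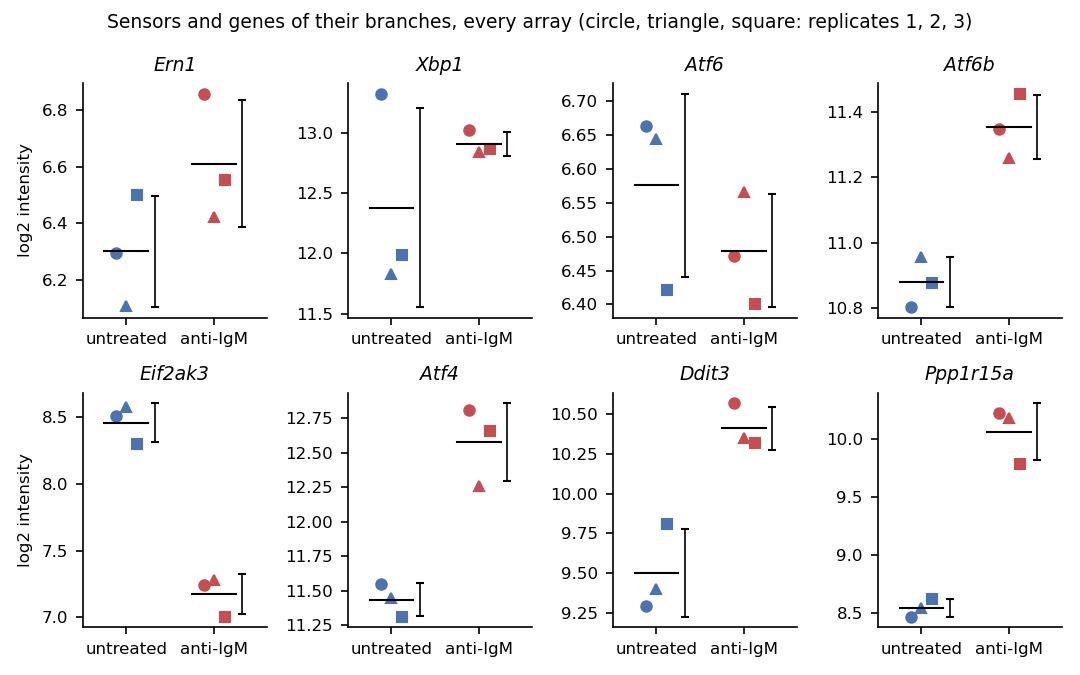
Log2 intensity in each of the 6 samples is shown for the 3 sensors, for Atf6b, a relative of Atf6, and for transcripts downstream of the sensors. Circles, triangles and squares are replicates 1, 2 and 3, the horizontal line is the group mean and the bar beside it the SD. Eif2ak3 is lower in all anti-IgM samples, Atf4 and Ddit3 are higher, and for Xbp1 the untreated replicate 1 at 13.32 lies above all 3 anti-IgM samples.

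The rest of the ER pathway was read from 6 further lists, which were written with earlier results of these data known. Of 121 such genes tested, 58 rose and 26 fell. Their median change was 0.35. The counts below are to be read against the 23.2% of all genes that rose and the 23.9% that fell, and no difference between lists was tested. Among 20 other folding genes, 7 rose and 6 fell, shares not far from those of all genes, and the median was -0.05. The largest rises were those of Fkbp11, a prolyl isomerase (1.66 ± 0.14), and Qsox2, a sulfhydryl oxidase (1.29 ± 0.15). Mzb1, a BiP- and GRP94-associated protein of B cells that aids IgM assembly, went from 14.74, 14.58 and 14.54 to 12.48, 12.49 and 12.48. It fell by 2.14 (SE 0.09, 4.41-fold lower, adjusted p = 3.18e-08), and Erp29, a lumenal protein of the disulfide isomerase family without the usual active site, fell by 1.81 (SE 0.10).

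Among 17 other genes of targeting and translocation, 11 rose and 3 fell, with a median of 0.59. Both subunits of the SRP receptor rose, Srprb by 1.61 ± 0.15 and Srpr by 1.05 ± 0.12. Tram1, a membrane protein that helps nascent chains to enter the bilayer, fell by 2.02 (SE 0.10), and Serp1, a small protein associated with SEC61 under stress, by 1.65 (SE 0.09). Among 24 genes of N-glycan assembly and trimming, 14 rose and 4 fell, with a median of 0.48. The mannosyltransferases Alg9 and Alg3, which extend the lipid-linked glycan, rose by 1.80 ± 0.12 and 1.62 ± 0.13, while the glucosyltransferase Alg6 fell by 1.03 (SE 0.15) and Ganab, the catalytic subunit of glucosidase II, by 0.87 (SE 0.15). This list also holds 6 tested subunits of oligosaccharyltransferase that are not members. Dad1, Ostc and Ost4 rose, by 1.11 ± 0.08, 0.81 ± 0.10 and 0.31 ± 0.09. Krtcap2 fell by 0.39 (SE 0.09, adjusted p = 0.006), and Stt3b (-0.29 ± 0.14) and Magt1 (-0.09 ± 0.12) did not pass.

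Of 21 other degradation genes tested, 6 rose and 7 fell, with a median of -0.19. These shares lie near those of all genes and are no result about degradation genes. The ubiquitin-conjugating enzymes Ube2g2 and Ube2j2 rose by 1.00 ± 0.18 and 0.92 ± 0.17. Erlec1, a lectin that recognises glycans of misfolded proteins, fell by 1.02 (SE 0.14), and Rnf185, a membrane ubiquitin ligase, by 0.94 (SE 0.12). Of 21 genes of signalling and output of the unfolded protein response, 10 rose and 5 fell, with a median of 0.53. The largest rises were those of the ATF4 targets Chac1, a glutathione-degrading enzyme, at 4.03 ± 0.18 and Trib3, a pseudokinase, at 3.13 ± 0.21. Untreated levels of both were near the array median (6.39, 6.33 and 5.93 for Chac1, and 6.32, 6.20 and 6.27 for Trib3), so these changes are likely to be understated. Creb3, an ER-anchored transcription factor, fell by 0.90 (SE 0.11) and Tmbim6, an ER membrane protein that restrains cell death, by 0.84 (SE 0.09).

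Chaperones of the cytosol were compared with those of the ER. Of 17 genes for cytosolic chaperones and the chaperonin TRiC, 13 rose, none (0) fell and 9 rose by at least 2-fold, with a median of 1.09. Cct6a and Cct3, both TRiC subunits, rose by 1.82 ± 0.09 and 1.75 ± 0.09. The medians of the ER folding members and of the cytosolic list thus lay close together, and no difference between the lists was tested. Irf4, a transcription factor needed for plasma cell formation, rose by 1.81 ± 0.12, and Prdm1 (BLIMP-1), which fixes the plasma cell state, was near the array median at -0.15 ± 0.13 (adjusted p = 0.42).

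**Figure D5:**
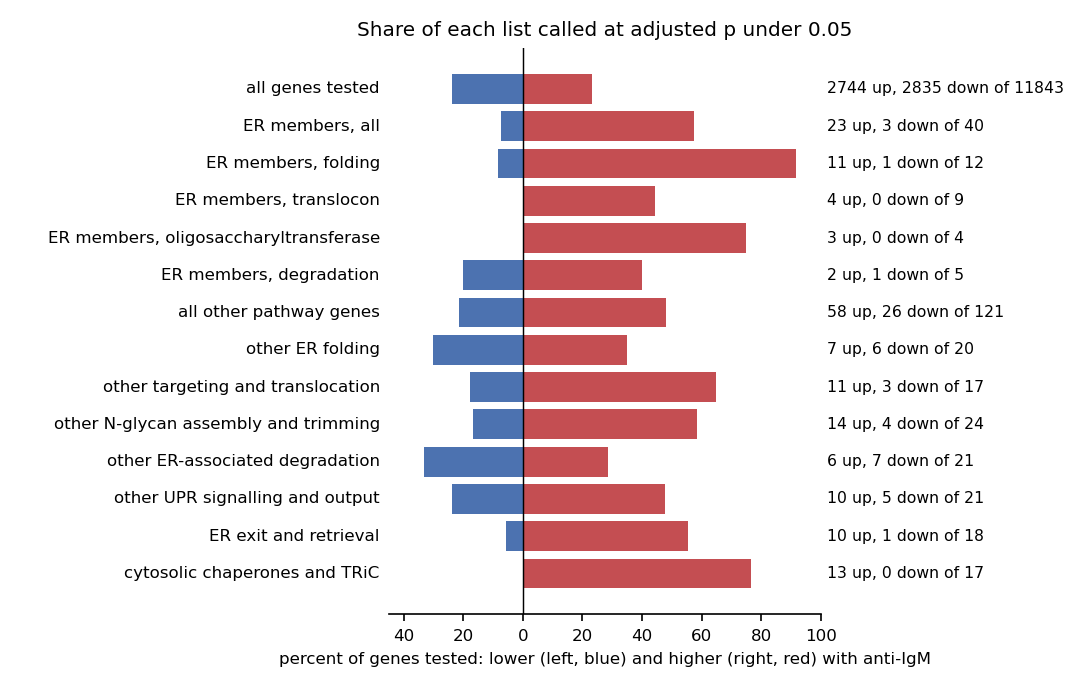
The share of tested genes called higher (red, to the right) and called lower (blue, to the left) is shown in percent for each list. Of the ER members 57.5% rose and 7.5% fell, against 23.2% and 23.9% of all genes tested.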

How the data were processed

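Per the labels' protocols, RNA was extracted with Trizol, cleaned on RNeasy columns and amplified to biotinylated cRNA for Illumina arrays. The values are the authors' deposited intensities, 1 per probe and sample on a linear scale, already normalized between arrays, as their equal medians show. The normalization used is not given in the sources used. The lowest was 34.4, so background is not removed and folds of dim genes are compressed. A second table, of unnormalized signals, was left out: the names of its 6 columns match no sample.

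The deposited intensities were taken as log2. Probes passed the filter if they exceeded the median of the array in 3 or more of 6 arrays. Each gene was read from its brightest probe (mean log2 over all 6 arrays) and was tested if that probe passed. Of 45281 probes, 34885 had 1 gene symbol, 18 several and 10378 were not listed. Groups, taken from sample titles, were compared with limma 3.58.1 in R 4.3.3. The linear model held group only, variances were moderated with an intensity trend, tests were two-sided, and p-values were adjusted over 11843 genes by Benjamini-Hochberg with a threshold of 0.05. At the median gene the SE rests on 10.1 degrees of freedom. Promoter windows are from RefSeq, and figures were made in matplotlib 3.10.9 under Python 3.11.15.

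The members, lists and rules were chosen with earlier results of these data known. All members are named, with values per sample for those changed by at least 2-fold, the sensors, Sec61a1 and Xbp1. Of each further list the 2 largest called rises and falls are named, besides Xbp1, Atf4, Ddit3, Mzb1, Irf4 and Prdm1. Per-sample values of other genes were added after their values were seen. So were Ppp1r15a, Atf6b, Rtcb, Traf2, Ero1b, Pan2 and the further oligosaccharyltransferase subunits.

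Whether replicates are separate mice or cultures is not in the labels. The p-values therefore measure only spread among these samples, which may be technical. No 2 arrays were identical (0 pairs). Deviations from the group means of samples with the same number correlated at 0.60, 0.27 and 0.32, each over 0.1, so the numbers were taken as pairs, and the model was also fitted with a replicate block. The check rests mainly on pair 1. It cannot show how replicates 2 and 3 are paired, as the r of untreated replicate 2 and anti-IgM replicate 3 was 0.39. Other alternatives changed the probe filter, normalization, background, probe choice, trend and minimum change, and left out arrays.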

Additional observations from a re-analysis of the deposited data

How the results depend on the processing

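Of the 26 called members, 24 kept their call and direction under 14 of 15 alternatives, the exception being the test against a minimum change. The other 2 were Edem1 with probes averaged and Dnajc3 without anti-IgM replicate 3. No called member changed direction (0). Against a minimum log2 change of 0.5, 12 of the 26 called members lost their call. Of those that kept it, 12 were higher, 7 of them folding genes, and the rest were lower. Of the other pathway genes 23 were higher and 14 lower, against 1334 higher and 1443 lower of all genes (2744 and 2835 without that minimum). The median change of the members was 0.58 with probes above the median on all 6 arrays and 0.47 with all tested probes averaged. Leaving out 1 array at a time gave 23 to 24 members higher and 3 to 4 lower, a median of 0.51 to 0.56, and 51 to 58 other pathway genes higher. Members higher by at least 2-fold numbered 8 to 9 and lower 1 to 2, as Creld2, P4hb and Syvn1 lay close to that mark. Syvn1 missed it without untreated replicate 1 or without anti-IgM replicate 2. With the replicate block, 26 members were higher and 4 lower, as given beside Sec61b, Rpn1, Sel1l and Herpud1, and it changed no other member's call. Without both replicate 1 arrays 25 were higher and 4 lower. Rpn1 and Herpud1 were also called with probes averaged and without untreated replicate 1. Low signal over background limits Canx, Manf, Derl1, Rpn1, Spcs2, Sec62, Ern1 and Atf6.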

Other observations

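Genes that carry cargo out of the ER and return residents to it were mostly higher as well. Of 18 tested, 10 rose and 1 fell, and the median change was 0.47. Kdelr2, a receptor that retrieves lumenal chaperones from the Golgi, rose by 1.37 ± 0.21 (2.59-fold, adjusted p = 0.000295), from 9.64, 10.06 and 10.14 to 10.80, 11.64 and 11.52. Tmed2, a cargo receptor of the p24 family, rose by 1.15 ± 0.24 (adjusted p = 0.0022). Ergic3, a protein of the compartment between ER and Golgi, fell by 0.81 (SE 0.09, adjusted p = 3.68e-05).

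Paralogs that fill the same place in a complex were not surveyed, but those of signal peptidase differed in direction. Of the alternative catalytic subunits of signal peptidase, Sec11a rose by 0.59 ± 0.09 (adjusted p = 0.000183), from 12.03, 11.90 and 12.01 to 12.60, 12.60 and 12.51. Sec11c fell by 0.99 (SE 0.15, adjusted p = 0.000221), from 9.55, 10.05 and 9.96 to 8.85, 8.77 and 8.95. Of the alternative catalytic subunits of oligosaccharyltransferase, Stt3a rose as given above, and Stt3b changed by -0.29 ± 0.14 (adjusted p = 0.13). Dad1, a subunit shared by both forms of that enzyme, rose by 1.11 ± 0.08 (adjusted p = 1.82e-06), from 12.59, 12.60 and 12.54 to 13.64, 13.79 and 13.63. These genes were named after their values were seen. Other paralogs went the same way, such as Sec61a1 and Sec61a2, which rose by 0.87 and 0.86.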
